A study of Mus musculus with 28 samples.

Results

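H3K9me2 domains are broad stretches of chromatin that carry a repressive histone mark, and the regions described here are the long stretches that were called as a domain in only 1 of the 5 deposited domain sets, the set whose name gives neither a cell state nor a treatment. That set is called the unlabelled set below. The regions were chosen by the domain calls themselves: bases of chromosomes 1 to 19 inside an unlabelled domain and outside every domain of the 4 sorted sets were joined where segments lay under 1 kb apart, and runs of 100 kb or more were kept. This gave 663 regions out of 4854 runs of any width. They add up to 108.0 Mb, which is 6.93% of the 1559 Mb in the unlabelled set, 46.7% of the 231.6 Mb that this set shares with no sorted set, and 4.39% of the 2463 Mb on these chromosomes. Because positions chose the regions, their absence from the sorted sets is a definition and not a result.

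The series measured H3K9me2 with ULI-NChIP, which immunoprecipitates native chromatin from few cells, in mouse embryonic stem cells (mESCs) of a BL6/129 hybrid background whose endogenous Ehmt2 gene carries a degron tag and an mCherry reporter, and it holds 14 immunoprecipitated and 14 input libraries. Bulk EHMT2-dTAG-mcherry cultures kept 24 h in the solvent DMSO gave 2 libraries of each kind. A line of 1 clone that also carries a MERVL-GFP reporter was kept 72 h in DMSO or in the degrader dTAG-13 and split by cell sorting: cells without GFP were taken as mESCs, cells with GFP as 2-cell-like cells (2CLCs), which resemble the 2-cell embryo and are rare in culture, with 3 libraries of each kind per condition. The resulting sorted sets are mESC DMSO, mESC dTAG, 2CLC DMSO and 2CLC dTAG, and every line, DMSO controls included, carries the tagged Ehmt2. The sorted groups are limited by the reporter that defines a 2CLC and by the retinoic acid receptor agonist TTNBP, which the labels give for 2 of the replicates without naming them and the methods for the sorted cells in general, so that it may also separate sorted from bulk cultures. The study called domains in bulk mESC cultures too, but no label ties the unlabelled set to these libraries, so it was assigned to no group.

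H3K9me2 is laid down by the methyltransferase complex of EHMT1 and EHMT2 and is bound by HP1 proteins. It spreads over broad stretches of chromatin that are poor in active genes, often at the nuclear periphery. The files hold domain positions without signal, each set is a single list for a whole condition, and no replicate error can be given. No test was therefore run. Shares of regions carry Wilson 95% intervals, which cover counting over regions and not differences between cultures, and the depth behind each domain is unknown.

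Few gene starts lay in the regions (419 of 20807 protein-coding starts on chromosomes 1 to 19, or 2.01%), and they were of mixed kinds. The promoters of genes that start in the 12 widest regions are shown for the 4 of 8 such genes found in the RefSeq promoter table (GRCm38.p6), because they display how different the starts inside the same kind of domain can be. Clic5 encodes an intracellular chloride channel protein, Adamts9 a secreted metalloprotease, Nps the precursor of neuropeptide S and Tmprss2 a membrane serine protease. The remaining genes are Lrfn2, St6galnac5, Fam3b and Mx1. Each sequence is the 250 bases before the RefSeq start, read 5′ to 3′ on the strand of the gene, with every CG dinucleotide in capitals; CG reads the same on both strands. The positions are chr17:44188322-44188571 (plus strand) for Clic5, chr6:92943535-92943784 (minus) for Adamts9, chr7:135268369-135268618 (plus) for Nps and chr16:97611196-97611445 (minus) for Tmprss2. The Nps sequence lies inside the gene by the GENCODE annotation used to count starts, which begins Nps at position 135258703.
Clic5: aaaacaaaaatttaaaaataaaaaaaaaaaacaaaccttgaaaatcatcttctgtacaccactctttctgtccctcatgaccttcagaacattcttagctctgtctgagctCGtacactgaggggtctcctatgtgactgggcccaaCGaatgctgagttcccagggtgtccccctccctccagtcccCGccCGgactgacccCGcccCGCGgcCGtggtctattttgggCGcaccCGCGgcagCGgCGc
Adamts9: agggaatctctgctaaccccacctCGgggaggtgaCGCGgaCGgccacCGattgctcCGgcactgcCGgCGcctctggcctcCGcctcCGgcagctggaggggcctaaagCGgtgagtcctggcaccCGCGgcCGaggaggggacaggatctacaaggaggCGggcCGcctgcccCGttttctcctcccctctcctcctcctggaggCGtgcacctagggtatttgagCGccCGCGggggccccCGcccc
Nps: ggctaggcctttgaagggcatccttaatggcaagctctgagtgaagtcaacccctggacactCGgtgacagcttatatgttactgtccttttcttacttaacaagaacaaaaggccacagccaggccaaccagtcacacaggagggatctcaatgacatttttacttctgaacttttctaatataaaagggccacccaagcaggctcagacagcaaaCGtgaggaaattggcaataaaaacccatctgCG
Tmprss2: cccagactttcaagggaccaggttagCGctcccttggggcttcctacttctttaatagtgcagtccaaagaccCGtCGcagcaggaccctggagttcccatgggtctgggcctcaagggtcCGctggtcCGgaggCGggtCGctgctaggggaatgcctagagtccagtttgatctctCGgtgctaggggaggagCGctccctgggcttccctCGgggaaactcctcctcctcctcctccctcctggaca

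The Adamts9 promoter held 22 CG dinucleotides and the Nps promoter 3, with 13 at Clic5 and 10 at Tmprss2. Of all promoters in the table, 86.7% had as few or fewer than Adamts9, 70.6% than Clic5, 64.4% than Tmprss2 and 37.8% than Nps. Over the 312 of 419 genes starting in a region that matched the table, with 389 promoters, the median was 6 CG dinucleotides per promoter, equal to the median of 6 over the 31396 promoters of chromosomes 1 to 19. At least 10 were found in 37.5% of these promoters and in 38.3% of all, and any CG dinucleotide in 97.9% and 92.4%. The promoters of chromosomes 1 to 19 belong to 25748 genes, more than the 20807 protein-coding genes counted above, so these are not like sets. At the median, promoters inside the regions had the same CG count as this wider set. Protein-coding promoters inside and outside the regions were not compared.

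The regions were mostly close to the limit of 100 kb. Their median width was 140 kb, with quartiles of 115 and 195 kb, and the widest measured 558.9 kb. There were 369 regions from 100 to 150 kb, 146 from 150 to 200 kb, 118 from 200 to 300 kb, 19 from 300 to 400 kb and 11 from 400 to 600 kb. Runs under the limit numbered 4191 and had a median width of 20.3 kb. The limit of 100 kb corresponds to 20 bins of the 5 kb grid on which domains were called, and 32 regions measured exactly 100000 bases. The 3 members nearest the limit (chr1:9565710-9665709, chr1:54770672-54870671 and chr1:82285100-82385099) have this width. The nearest runs left out (chr1:54875672-54975670, chr10:69074910-69174908 and chr4:63220330-63320328) measured 99999 bases, 1 base less. The member and the excluded run that begin at 54770672 and 54875672 on chromosome 1 are neighbours.

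**Figure D1:**
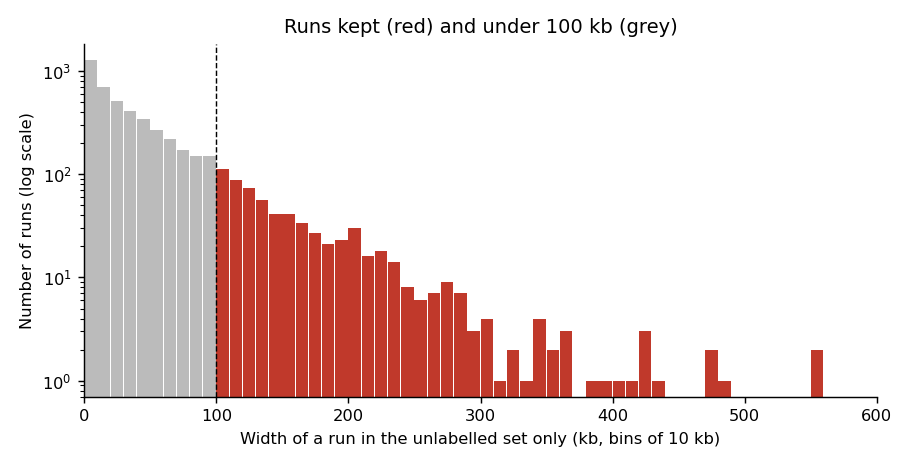
Width (x axis, bins of 10 kb) and number (y axis, log scale) of all 4854 runs covered by the unlabelled set alone. The 663 regions of 100 kb or more are red and the 4191 shorter runs grey; counts become smaller across the dashed limit with no gap at 100 kb.

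All 19 chromosomes held regions. Chromosome 13 had the most by number (59, 8.48 Mb) and chromosome 19 the fewest (11, 1.76 Mb). By length, chromosome 7 had the most (54 regions, 9.09 Mb). As a share of the unlabelled set, the regions ranged from 3.83% on chromosome 15 and 3.99% on chromosome 4 to 10.2% on chromosome 13, 10.4% on chromosome 11 and 10.5% on chromosome 7. The centres were spread along the chromosomes, with 92, 157, 131, 126 and 157 in 5 equal stretches counted from the centromeric end. Within 5 Mb of a chromosome end lay 33 regions (4.98%), where 7.71% of all bases are found. Both this share and the 5 stretches include assembly gaps, in which no read can be placed. Gaps make up 2.71% of chromosomes 1 to 19, and where they lie was not taken into account, so no shortage near the ends is read from these counts.

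The regions came from many unlabelled domains, nearly 1 domain each. Every one of the 663 lay in a single unlabelled domain, and 627 of 6115 unlabelled domains (10.3%) contributed. A whole unlabelled domain formed 269 regions (40.6%, 95% interval 36.9% to 44.4%), a further 302 (45.6%) had 1 edge of their own and stopped at a sorted domain on the other side, and 92 (13.9%, 11.5% to 16.7%) bridged between sorted domains inside a wider unlabelled domain. The median unlabelled domain around these 3 kinds measured 140, 335 and 545 kb. Counting domains of any width, 1037 of 6115 unlabelled domains (17.0%) shared no base with a sorted domain, with a median width of 60 kb, while among the 3911 of 100 kb or more it was 269 (6.88%). The same rule was also applied to each sorted set, with all other sets subtracted. It gave 3 regions for mESC DMSO, 0 for mESC dTAG, 2 for 2CLC DMSO and 7 for 2CLC dTAG. Here the other sorted sets were subtracted too, which by itself lowers these counts, so they are not like the 663. Runs of 100 kb or more in all 4 sorted sets and outside the unlabelled set numbered 83 and added up to 17.8 Mb. The sorted sets cover 1099 to 1290 Mb against 1559 Mb in the unlabelled set.

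How often a region lies next to a sorted domain is largely fixed by the rule, since sorted domains were subtracted and the 394 regions with 1 edge of their own or none end at one. A sorted domain began within 5 kb of both edges in 99 regions (14.9%), of 1 edge in 316 (47.7%) and of neither edge in 248 (37.4%, 33.8% to 41.2%). By condition, a mESC DMSO domain lay within 5 kb of an edge of 217 regions (32.7%), a 2CLC dTAG domain of 209 (31.5%), a 2CLC DMSO domain of 135 (20.4%) and a mESC dTAG domain of 133 (20.1%). These counts are over the same 663 regions and are given as a description. The median distance from a region to the nearest domain was 34.4 kb for 2CLC dTAG, 50 kb for mESC DMSO, 69.6 kb for mESC dTAG and 101 kb for 2CLC DMSO. The 2CLC dTAG set has the most domains (8281 on these chromosomes, against 3870 in each DMSO set and 6770 in mESC dTAG). The part of the number of domains in these distances was not tested.

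In the 100 kb outside each edge, unlabelled domains covered a mean of 59.3% of bases, mESC DMSO domains 24.5%, 2CLC dTAG domains 20.2%, 2CLC DMSO domains 16.3% and mESC dTAG domains 15.2%. Over chromosomes 1 to 19 as a whole the same sets cover 63.3%, 52.4%, 46.7%, 49.7% and 44.6%. The 4 sorted sets were thus below their chromosome-wide share around the regions, and the unlabelled set was near its own. The regions were chosen outside sorted domains, which by itself lowers sorted coverage beside them. The stretch between the sorted domains that enclose a region had a median of 325 kb, of which the region filled 50% (quartiles 29.9% and 83.4%), and 138 regions filled 90% or more. The region farthest from any sorted domain, chr17:86362332-86467331, lay 1090 kb away. Of the 838 region edges that are also edges of an unlabelled domain, 212 (25.3%) had the next unlabelled domain 1 bin away.

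**Figure D2:**
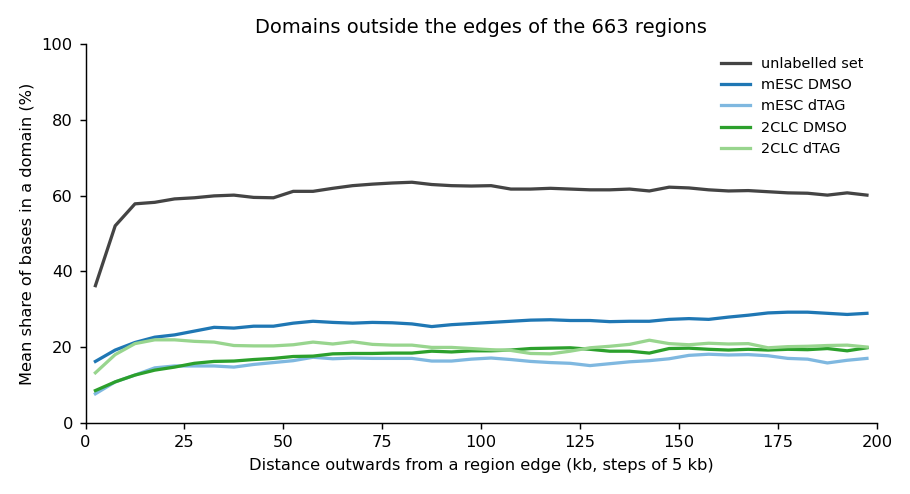
Mean share of bases in a domain (y axis, percent) against distance outwards from the region edges (x axis, kb, steps of 5 kb, both sides of the 663 regions). Unlabelled domains rise from 36.2% in the nearest 5 kb to about 60%, and the sorted sets stay at or below 29.2% out to 200 kb, with mESC DMSO the highest of the 4 at every distance.

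The sequence of the regions was GC-richer and poorer in repeats than that of the domains common to all sets. Median GC content was 44.3% (quartiles 43.0% and 45.7%) in the regions, against 38.3% (37.2% and 39.5%) in 2416 runs of 100 kb or more that lie in all 5 sets and 45.0% (43.1% and 47.2%) in 1773 such runs that lie in none. The interquartile ranges of the regions and the common runs do not overlap, and those of the regions and the runs in no set do. Soft-masked bases are those that the reference writes in lower case as repetitive sequence. They made up a median of 21.8% (19.4% and 25%) of a region. The median was 43.3% (37.7% and 48.8%) for common runs and 26.1% (22.7% and 29.8%) for runs in no set. Chromosome by chromosome, pooled GC content was higher in the regions than in common runs on 19 of 19 and lower than in runs of no set on 17 of 19, and the soft-masked share was lower than in both on 19 of 19.

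Between these ends the composition differed by the number of sorted sets that share a run. Median GC content was 44.3% in the regions, 42.8% in 227 runs shared with 1 sorted set, 40.6% in 275 shared with 2, 39.4% in 144 shared with 3 and 38.3% in the runs shared with 4. The median soft-masked share went from 21.8% through 23.5%, 23.8% and 28.7% to 43.3% in the same order. The CpG observed-over-expected ratio, 1 where CG occurs as often as its bases predict, had a median of 0.196 in the regions, 0.176 with 1 sorted set, 0.146 with 4 and 0.230 in runs of no set. These runs neighbour each other along the genome and are not independent, so the order is a description.

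**Figure D3:**
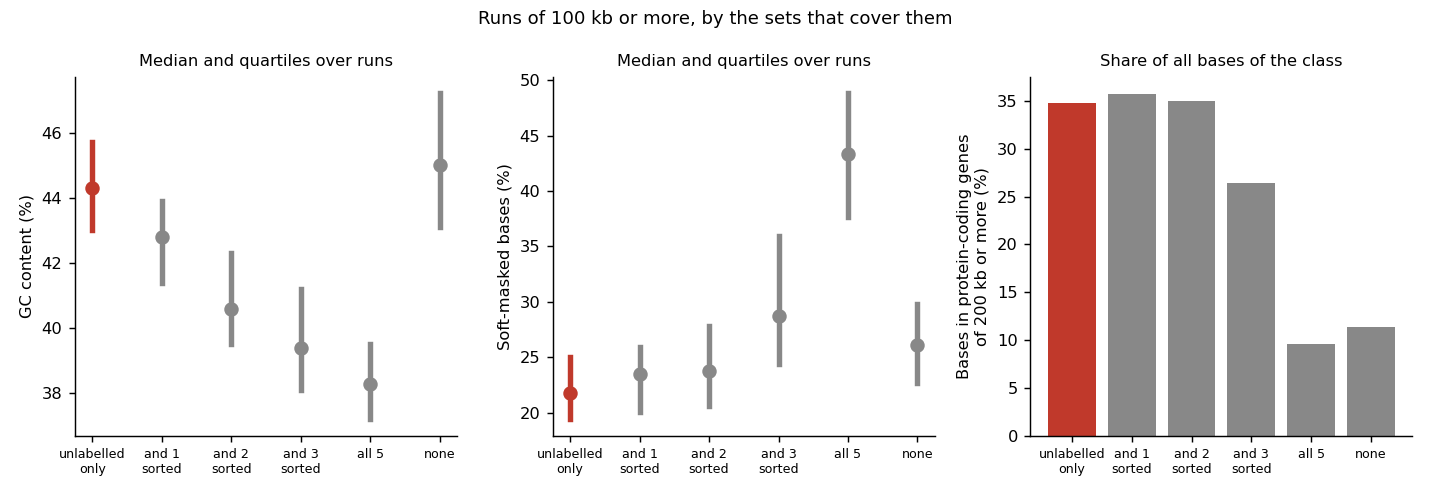
Runs of 100 kb or more by the sets that cover them (x axis): the unlabelled set only (red), the unlabelled set and 1, 2 or 3 sorted sets, all 5 sets, and none. Points and bars in the left and middle panels give medians and quartiles over runs of GC content and of soft-masked bases (percent; neither axis starts at 0); the right panel gives the share of all bases in protein-coding genes of 200 kb or more, which is 34.8%, 35.7% and 35.0% in the first 3 classes and 9.62% in all 5 sets.

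Repeated sequence was scarce in most regions. As a measure of it, 50-mers that occur again on the same chromosome and strand made up a median of 1.59% of a region (quartiles 1.07% and 2.29%), against 9.54% of a common run and 1.98% of a run in no set. Pooled by chromosome, the share was lower in the regions than in common runs on 19 of 19 chromosomes and than in runs of no set on 15 of 19. The median was 1.16% in the shorter runs of the unlabelled set alone, below the median of the regions. Against these shorter runs, the pooled share was lower in the regions on 16 of 19 chromosomes. Runs that the unlabelled set shares with 1, 2 or 3 sorted sets had medians of 1.99%, 2.1% and 3.29%. In 3 of 663 regions the share passed 20%, with the highest value of 81.5% at chr3:92189389-92289388, which holds Sprr2a1, Sprr2a2 and Sprr2a3, near-identical genes for cornified envelope proteins of the skin. Reads from such copies cannot be placed with certainty. Assembly gaps were present in 9 regions and made up 10% or more of 3. Regions ranged in GC content from 38.5% (chr13:32013097-32208096, inside Gmds) to 50.2% (chr15:74593968-74693967, which overlaps Arc and Mroh4), and in soft-masked share from 13.0% (chr4:104370294-104510293, inside Dab1) to 44.9% (chr7:64060591-64160590, Trpm1). The genes at these extremes were named after the values had been seen.

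Protein-coding genes rarely start in the regions. Of 20807 protein-coding gene starts on chromosomes 1 to 19, 419 lay in a region, a background share of 2.01% against which the gene lists below are read. This is 3.88 starts per Mb, beside 3.36 per Mb in common runs (higher in the regions on 9 of 19 chromosomes and lower on 10). Runs that the unlabelled set shares with 1, 2 or 3 sorted sets had 2.16, 2.29 and 2.53 starts per Mb, less than the regions, and the shorter runs in the unlabelled set alone had 7.46. The regions were below the 8.45 per Mb of all bases and the 17.4 per Mb of runs in no set (lower on 19 of 19). No protein-coding gene started in 402 regions (60.6%, 56.9% to 64.3%). Counting all 51229 annotated genes, noncoding ones included, 1613 starts (3.15%) were inside.

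Gene bodies gave another picture than gene starts. Protein-coding gene bodies covered 53.2% of region bases, against 14.8% of bases in common runs, 61.5% in runs of no set and 40.3% of all chromosome bases, while exons made up 2.29%, 1.15%, 8.03% and 3.76%. Much of the regions was thus intron sequence. Gene bodies covered 49.3% of bases in the runs under 100 kb of the unlabelled set alone, with the regions higher on 13 of 19 chromosomes. In runs that the unlabelled set shares with 1, 2 or 3 sorted sets they covered 47.4%, 40.9% and 34.6%. Exons made up 3.63% of bases in the runs under 100 kb and 1.43%, 1.16% and 1.12% in the shared runs. Genes of 200 kb or more, called long genes here, covered 34.8% of region bases, 9.62% in common runs, 11.4% in runs of no set and 16.5% of all bases, and the regions exceeded both kinds of run on 19 of 19 chromosomes. The share was no higher than in runs that the unlabelled set shares with 1 or 2 sorted sets (35.7% and 35.0%), and it was 26.4% in those shared with 3. In the runs under 100 kb of the unlabelled set alone it was 21.1%, with the regions higher on 16 of 19 chromosomes, so the share also goes with the width limit. Long genes filled 90% or more of 177 regions (26.7%, 23.5% to 30.2%), and 148 regions (22.3%, 19.3% to 25.6%) held no base of a protein-coding gene.

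**Figure D4:**
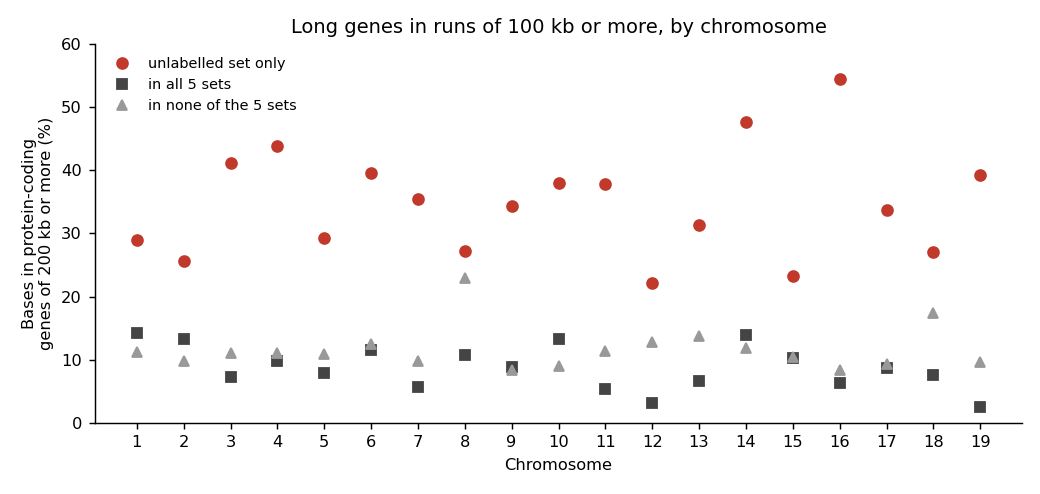
Share of bases in protein-coding genes of 200 kb or more (y axis, percent) on each chromosome (x axis) for runs of 100 kb or more in the unlabelled set only (red circles), in all 5 sets (black squares) and in none (grey triangles). Red circles lie above the other symbols on each of the 19 chromosomes, from 22.1% on chromosome 12 to 54.5% on chromosome 16.

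Content was also taken by the 3 positional kinds of region. Median GC content was 44.9% in the 269 whole domains, 44.1% in the 302 regions with 1 edge of their own and 43.8% in the 92 bridges, and the median soft-masked share was 21.6%, 22.0% and 21.5%. Protein-coding gene starts numbered 3.55, 4.15 and 3.94 per Mb, and long genes covered 34.8%, 33.0% and 41% of bases. By width, median GC content was 44.2% in regions of 100 to 150 kb, 44.5% from 150 to 200 kb and 44.3% from 200 kb. Long genes covered 27.4% of bases of the narrowest of these classes, 37.8% of the next and 41.3% of the widest, and gene starts numbered 4.82, 3.41 and 3.12 per Mb in the same order. The 177 regions with 90% or more of their bases in long genes held 0.933 starts per Mb.

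Of 953 long genes, 209 (21.9%) had a base in a region, 82 (8.60%) had 50% or more of their body inside and 50 (5.25%) started there, against 3.63% of all protein-coding genes with a base inside and the 2.01% that started there. Longer genes meet more regions by their length alone. Genes in this and the next paragraph whose bodies but not whose starts lie in a region were named after their overlap had been seen. Rbfox1, which encodes a neuronal splicing regulator and spans 1530 kb on chromosome 16, met 4 regions that cover 1150 kb or 75.4% of it. Fgfr2, annotated over 2960 kb on chromosome 7, met 6 regions that cover 762 kb or 25.7% of it. That span takes in other genes, such as Htra1 and Dmbt1, and annotated spans were used as given for all long genes. Wwox, an oxidoreductase gene at a common fragile site, had 559 kb inside, Asic2, an acid-sensing ion channel, 548 kb in 2 regions, Erc2, a presynaptic scaffold protein, 527 kb in 2 regions and Zfhx3, a homeodomain and zinc finger transcription factor, 485 kb in 3 regions. Nearly the whole of Prickle2, a planar cell polarity gene (98.5% of 335 kb), and all 249 kb of Cacnb4, a calcium channel beta subunit, lay in regions.

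The 12 widest regions measured 400 to 559 kb, with exons in at most 5.94% of their bases. The widest, chr8:114648964-115207855, lay wholly inside Wwox, with exons in 0.416% of its bases. It touched a sorted domain on its right edge and lay 211 kb from the nearest on its left. The next, chr16:6445252-6995251 (550 kb), was a whole unlabelled domain inside Rbfox1, 120 and 365 kb from sorted domains, with exons in 0.0164% of bases. The region at chr5:131637021-132116117 lay inside Auts2, a neurodevelopmental regulator, and chr14:23581362-24001361 inside Kcnma1, the pore subunit of a calcium-activated potassium channel. Fstl4, a follistatin-like gene, had 97.6% of its 424 kb in chr11:52774852-53249850, and the first part of that gene was outside.

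The other wide regions held few starts. Clic5, whose promoter is shown above, lay whole (91.6 kb) in chr17:44132368-44616954, which also took in 37.9% of Runx2, the transcription factor of bone formation, and filled 98.9% of the stretch between sorted domains. At chr12:28882225-29322223 (440 kb) there was no protein-coding base. The region chr17:48607364-49036948 held the start of Lrfn2, a synaptic adhesion molecule, and chr3:152839308-153260068 the start of the sialyltransferase St6galnac5 with 53.0% of Pigk, an enzyme of GPI anchor attachment. At chr6:92932240-93351283 the start of Adamts9 lay just inside the edge, with 6.59% of the gene in the region and 2.69% of the region in protein-coding genes. At chr7:134980530-135385529 the region held Nps and 38.4% of Dock1, an activator of Rac signalling, and lay 421 and 329 kb from sorted domains. The last, chr16:97360175-97760173, held 3 starts, of Tmprss2, of the cytokine-like Fam3b and of the interferon-induced GTPase Mx1, and filled 97.6% of its stretch between sorted domains.

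In the 500 kb on both sides of these 12 regions, coverage by the unlabelled set was 27.0% to 97%. Coverage by mESC DMSO domains ran from 0% at the Fstl4 region to 77.9% at the Wwox region, and by mESC dTAG domains from 4.50% to 41.5%. For 2CLC DMSO domains the range was 0% to 38.0% and for 2CLC dTAG domains 2.00% to 34.5%. At the Wwox region mESC DMSO domains covered 77.9% of the surroundings and 2CLC DMSO domains 6.00%. At the Adamts9 and Nps regions no sorted set passed 7.90%.

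**Figure D5:**
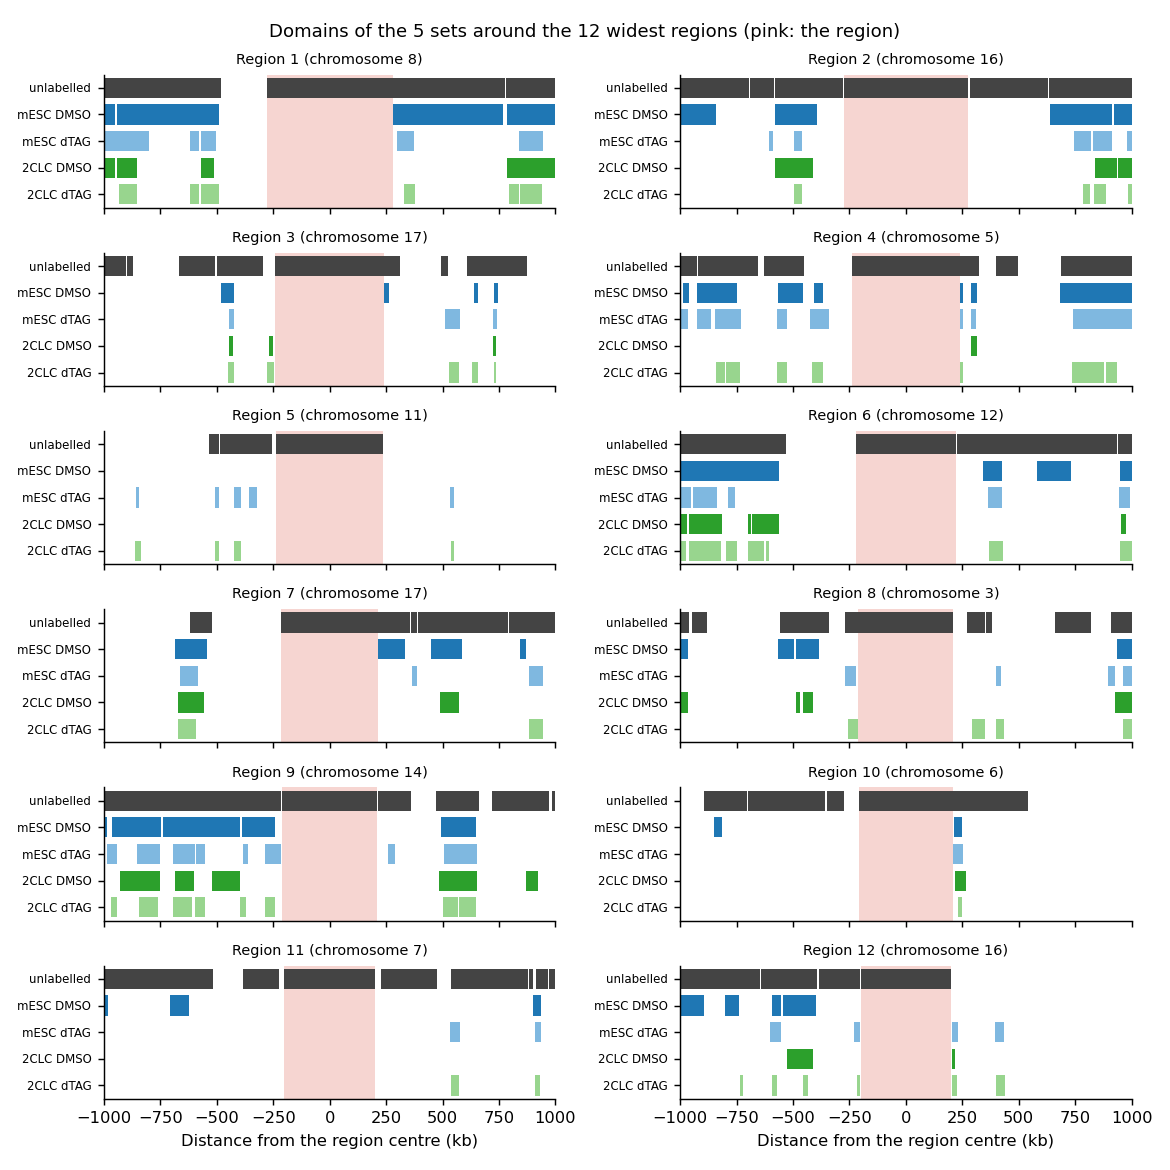
Domains of the 5 sets (rows) within 1000 kb of the centre of each of the 12 widest regions (x axis, distance from the centre in kb). Filled bars are domains and the pink band is the region, which by its definition holds only unlabelled domains; sorted domains lie beside the Wwox region (region 1) and are sparse around the Fstl4, Adamts9 and Nps regions (regions 5, 10 and 11).

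The regions richest in gene starts were gene clusters. The richest, chr11:99949701-100204810 (255 kb, 14 starts), held a type I keratin cluster with Krt13, Krt15, Krt19, Krt31, Krt32, Krt33a, Krt33b, Krt34, Krt35, Krt36 and Krt9, filament proteins of epithelia and hair, and the keratin-associated genes Krtap16-1, Krtap17-1 and Krtap29-1, which encode hair matrix proteins. The neighbour Krt14 ended inside and started outside. At chr13:23793104-23992914 (200 kb) lay 7 starts, of the phosphate and anion transporters Slc17a1, Slc17a2, Slc17a3 and Slc17a4, of the calcium-binding Scgn, and of Hist1h2aa and Hist1h2ba, histone genes of the male germ line. At chr3:90525123-90669390 (144 kb) 10 genes started, 9 of them named S100a, calcium-binding proteins of the epidermis and of inflammation. At chr6:48627278-48746342 (119 kb) 8 genes started, 7 of them Gimap genes, GTPases of lymphocytes. At chr11:58729846-58834845 (105 kb) 7 started, 6 of them olfactory receptor genes. These 5 clusters hold 46 of the 419 starts, and neighbouring members of a cluster share a domain and are not independent.

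Gene lists were then counted against the share of 2.01%. None of 8 Zscan4, 7 Obox, 5 Tdpoz, 5 Usp17l and 11 Pramel or Pramef genes, families tied to the 2-cell state, started in a region, and neither did any of 20 pluripotency genes, 19 genes of the H3K9 methylation machinery, 39 Hox genes, 57 clustered protocadherins, 79 ribosomal protein genes or 329 vomeronasal receptor genes. Most of these lists are short or lie in a few clusters, so a count of 0 says little about them. Of 1128 olfactory receptor genes 6 (0.532%) were inside, all in the cluster on chromosome 11, and of 385 zinc finger (Zfp) genes 4 (1.04%), Zfp518b, Zfp800, Zfp827 and Zfp831. Ion channel genes had 10 of 187 (5.35%), solute carriers 14 of 372 (3.76%) and collagens 3 of 43 (6.98%). The solute carriers include the 4 Slc17a genes of the chromosome 13 cluster, and the ion channel genes Kcna1 and Kcna5 share a region. Of long genes, 5.25% started in a region, and the part of gene length in these list shares was not tested. G protein-coupled receptors had 2 of 89 (2.25%), Adgrf5 and Gpr171, and adhesion and guidance genes 1 of 95 (1.05%), Slit3, a guidance ligand whose first 204 kb lay inside.

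Single developmental genes occurred here and there. Of 140 developmental transcription factor genes 4 (2.86%) started in a region. Irx4, a gene of the heart ventricle, lay whole in chr13:73157849-73308061, and Sox7, a gene of endoderm and vessels, whole in chr14:63936328-64046327. Nkx2-2, of the ventral neural tube and pancreas, and Pax1, of the sclerotome, started at opposite ends of the same region, chr2:147193454-147368453, with 4.73% and 20.8% of their bodies inside. Of 52 signalling ligand genes 1 (1.92%) was inside, Wnt5a, a ligand of noncanonical Wnt signalling, with 94.1% of its body in the right end of chr14:28236110-28526108. The collagen genes were Col6a3 and Col15a1, both whole, and Col27a1, of which 1.10% lay inside. Of 75 histone genes 3 (4.00%) were inside, the pair on chromosome 13 and H2afz, which encodes the variant H2A.Z and lay in chr3:137774328-137905082.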

How the data were processed

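H3K9me2 ULI-NChIP was made from bulk mESCs and from sorted mESCs and 2CLCs (antibody ab1220). Per the study's methods and processing notes, the authors trimmed reads, aligned them with STAR 2.7.10 in a mode that places reads with several matches, used Picard 2.26.0, SAMtools 1.14, bedtools 2.30.0, deepTools 3.5.1 and R 4.1.2, removed regions of artificially high signal, scaled coverage without chromosomes X and M, averaged it in 10 kb windows at steps of 5 kb, took the log2 ratio to input and extended domains from high bins to a low bin. Whether replicates were pooled is not stated. The authors deposited 5 lists of domain positions (mm10, score 0 on every line), without counts or signal, so depth is unknown. The unlabelled set lies on a grid that differs from that of mESC DMSO by 28.8 to 1140 bases, depending on the chromosome. The largest offset of another sorted set from mESC DMSO was 0.504 to 15.1 bases. The sorted sets thus nearly share a grid that the unlabelled set does not, and what else differed in its processing is not stated. Edges within 1 bin of each other are not told apart.

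Positions were compared base by base with Python 3.11.15, numpy 2.4.6 and pandas 2.3.3 against GRCm38.p6, the assembly of mm10, and GENCODE M21, and intervals were computed with scipy 1.17.1. Runs of other classes were cut by the same rule. Set arithmetic and 50-mer marking were tested on simulated data. Regions were named by width (12 widest), gene starts (5 richest) and distance to the limit; genes were named if they start in these regions, up to 30 in all, or belong to a list with 5 or fewer members inside. Members and lists were chosen with earlier results of these data known. Chromosomes X, Y and M were outside the rule. No test was run, because each condition has 1 list.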

Additional observations from a re-analysis of the deposited data

Results flagged for a closer look

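Chromosome X was outside the comparisons. Applied to it, the same rule gave 4 regions of 100 kb or more in the unlabelled set only, 0.510 Mb in all. The widest was chrX:11371333-11526212 (155 kb). Each of chromosomes 1 to 19 had more, the lowest being chromosome 19 with 11 regions and 1.76 Mb. The authors left chromosome X out of the scaling of coverage, so this difference was not interpreted. Chromosome Y and the mitochondrial genome gave 0 such regions. There is no control set beside which to read these counts.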

How the results depend on the processing

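Of 162 recomputed values, 138 stayed within 1.5 times a count or length or within the 95% interval of a median, rate or share. A further 24 moved and 0 reversed, but these values have no direction that could reverse. For the long-gene share, the interval took regions as trials. Most of the 162 values left out 1 chromosome, which keeps most regions, and 0 of 19 such values moved for each result. The count of 138 therefore says little about the other settings. The number (663) and total length (108.0 Mb) followed the minimum width: 1625 regions and 175.9 Mb from 50 kb, 148 and 39.11 Mb from 200 kb. From 50 kb, the median soft-masked share was 22.7%, gene starts 4.60 per Mb and the long-gene share 29.7%; from 200 kb they were 21.0%, 3.12 per Mb and 41.3%. Merging segments up to 5 kb apart gave 699 regions and 4.28 gene starts per Mb. With only the mESC sets subtracted there were 896 regions, median GC content was 44.0%, the soft-masked share 22.8%, repeated 50-mers 1.84%, gene starts 4.28 per Mb and the long-gene share 30.2%; with only the DMSO sets subtracted there were 890, with 44.2%, 23.4%, 1.99%, 4.27 per Mb and 29.9%. Genes of 100 kb or more covered 45.5% of region bases. Over all annotated genes, 3.15% of starts were inside. A sorted domain lay within 50 kb of an edge in 76.8% of regions, against 62.6% within 5 kb. The causes of these shifts were not tested. Widening the sorted domains by 5 kb left 620 regions, dropping those with 10% N or more left 660, and keeping runs of 20 bins, an alternative added after the data had been seen, gave 675. The long-gene share and its alternatives were added then too.

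Leaving out each chromosome in turn gave ranges of 44.2% to 44.5% for median GC content, 21.6% to 21.9% for the soft-masked share, 1.57% to 1.62% for repeated 50-mers, 3.63 to 3.95 gene starts per Mb and 33.7% to 35.5% for the long-gene share. No paired analysis was possible because each condition has 1 list of positions and no result comes from a test. Without signal values, a region just under the calling limit in a sorted set cannot be told from one far under it.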
